A study of Mus musculus with 22 samples.

Results

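The comparison set 7 arrays of mouse embryonic fibroblasts (MEFs, cells cultured directly from embryos) that carried an activated mutant oncogene and had lost Wt1 against 4 arrays of MEFs that had lost Wt1 alone. The double arrays are those labelled replicates 1 to 7 of the cells with both changes, and the Wt1-null arrays are those labelled replicates 1, 3, 4 and 5. These were 11 of the 22 arrays of the series. Wt1-null replicate 2 was left out because it was nearly identical to double replicate 2. Each of 18194 genes was represented by the probe set with the highest mean among those annotated to 1 gene.

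Double MEFs had been infected with an adenovirus carrying Cre recombinase, which switched on the mutant oncogene and deleted Wt1. Wt1-null MEFs were Wt1f/f cells infected with the same kind of Cre virus, so both groups lack Wt1 per the labels and both received Cre. RNA was taken 7 days after infection. For comparison, 5 oncogene arrays came from cells in which Cre switched on the oncogene with Wt1 left in place, and 5 control arrays came from cells given a GFP virus. The labels do not say whether arrays of a group came from separate embryos or cultures, so the p-values measure the spread between arrays, part of which may be technical.

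Growth factor signalling runs through a cascade of kinases to ERK, which induces transcription factors, growth genes and its own feedback inhibitors. Wt1 encodes a DNA-binding protein that is needed for kidney and gonad to form and is best known from Wilms tumour. Cultured MEFs normally hold many actin stress fibres, whose contractile genes are driven by serum response factor and its actin-sensing partner, and which are also typical of myofibroblasts.

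All values are log2 intensities summarised by RMA, in which 1 unit is a doubling of the measured signal. A difference is the double mean minus the Wt1-null mean, with its standard error (SE) from the limma fit. Wt1 itself gave no check of the deletion. Its level was 4.16, 4.41 and 4.77 (lowest, median and highest) in the 7 double arrays, against 4.72, 4.50, 4.36 and 4.42 in the Wt1-null arrays, and the log2 difference was -0.05 (SE 0.10, adjusted p = 0.852). Y-linked genes gave 3.65 to 5.06 in arrays with high Xist, so Wt1 lay in the range of unexpressed genes in both groups. Fibroblast markers were high in both groups, with vimentin (Vim) at 14.79 to 14.91 in double and 14.79 to 14.93 in Wt1-null arrays. The defining markers Pecam1 and Vwf of endothelium, Ptprc and Itgam of blood cells and Cdh1 of epithelium read 3.98 to 4.92 in double arrays and 3.86 to 4.87 in Wt1-null arrays. Epcam, another epithelial marker, read 8.13 to 9.30 in double and 8.21 to 8.59 in Wt1-null arrays. Other members of these marker lists also read higher. In double arrays Tek of endothelium read 6.20 to 8.13 and Dsp of epithelium 6.35 to 9.77, and Krt7 of epithelium read at least 7.86 in Wt1-null arrays.

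Several arrays stood apart. Double replicate 2 and the left-out Wt1-null replicate 2 were so alike that the SD of their difference across genes was 0.152, where the next closest pair of different groups had 0.285. For Wt1-null replicates 3 and 4 that SD was 0.162, where the next closest pair within a group had 0.242; they may not be independent cultures. Double replicates 3, 4 and 6 correlated best with the oncogene arrays of the same number, double replicate 1 with control replicate 3, Wt1-null replicate 1 with control replicate 2 and Wt1-null replicate 5 with oncogene replicate 6. Double replicate 4 had the lowest mean correlation with the other arrays, 0.940. Xist, which coats the silenced X in female cells, was high in 5 of 7 double arrays and in 1 of 4 Wt1-null arrays. The part of these features in the results was not tested beyond the counts without those arrays or with Xist as a covariate, which are given beside the results.

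At an adjusted p below 0.05 by limma, 926 of 18194 genes (5.09%) differed between double and Wt1-null arrays. Of these, 588 were higher in double arrays (3.23% of all genes) and 338 were lower (1.86%). A log2 difference of at least 1 was reached by 410 of the called genes, 266 higher and 144 lower. The 7 double and 4 Wt1-null arrays did not overlap for 5.64% of all genes, 3.72% higher and 1.92% lower in double arrays. The median difference over all genes was 0.03, and 56.2% of all genes had a difference above 0. With Wt1-null replicates 3 and 4 averaged into 1 sample, 354 genes were called. Leaving out Wt1-null replicate 3 gave 370, leaving out Wt1-null replicate 4 gave 363, and leaving out Wt1-null replicate 5 gave 579. With Xist as a covariate 332 were called, and without Wt1-null replicate 1 and double replicates 2 and 4 together 586 were called. With the left-out Wt1-null replicate 2 kept among the Wt1-null arrays, 15 were called. Of 113 called genes that the text names by rule, 66 kept their call whichever 1 array was left out, and 42 of the other 47 lost it without Wt1-null replicate 3 or without Wt1-null replicate 4.

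The 15 largest rises and 15 largest falls described next were taken only from called genes whose double and Wt1-null arrays did not overlap, so the lack of overlap is a condition of the choice for all 30. Called genes with overlapping arrays, such as Igfbp2 (-3.52) and Dkk2 (2.59), are described with their lists. The rises encode a urea transporter, receptors, secreted signals and surface proteins, among others. Slc14a1, the urea transporter, had 10.06, 12.68 and 12.80 (lowest, median and highest) in double arrays, against 7.45, 7.72, 7.79 and 6.24 in Wt1-null arrays. Double replicate 4 was the lowest double array, and the log2 difference was 4.80 (SE 0.67, adjusted p = 0.000588). Agtr2, the angiotensin II type 2 receptor, had 10.62, 12.04 and 12.95 in double arrays, against 8.19, 6.90, 7.19 and 6.60 in Wt1-null arrays. Wt1-null replicate 1 was the highest Wt1-null array, and the log2 difference was 4.80 (SE 0.60, adjusted p = 0.00023). Bmp2, a bone morphogenetic protein ligand, had 8.06, 10.71 and 12.32 in double arrays, against 6.62, 6.53, 6.71 and 7.46 in Wt1-null arrays. Its spread among double arrays was wide (log2 difference 3.88, SE 0.62, adjusted p = 0.00135).

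Cd34, a sialomucin of progenitor and endothelial cells that some fibroblasts carry, showed a narrower spread. It had 9.08, 9.91 and 10.96 in double arrays, against 6.16, 6.54, 6.86 and 6.71 in Wt1-null arrays (log2 difference 3.33, SE 0.36, adjusted p = 9.19e-05). Icam1, the adhesion ligand of leukocyte integrins, had 9.13, 9.35 and 10.36 in double arrays, against 6.36, 6.62, 6.79 and 7.06 in Wt1-null arrays. It had the most precise of the large rises, with a log2 difference of 2.86 (SE 0.27, adjusted p = 1.34e-05). Mmp3, the matrix protease stromelysin, had 11.54, 12.16 and 13.25 in double arrays, against 9.37, 9.22, 9.26 and 7.89 in Wt1-null arrays. Wt1-null replicate 5 was the lowest array, and the log2 difference was 3.27 (SE 0.41, adjusted p = 0.00023).

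The other 9 of these 15 rises were Nptx1, a neuronal pentraxin (3.88), Scara5, a ferritin receptor (3.57), Frzb, a secreted Wnt antagonist (3.07), Trbv1, a T cell receptor segment (2.82), Phex, an endopeptidase of phosphate handling (2.80), Gda, guanine deaminase (2.69), Pla2g7, which hydrolyses platelet-activating factor (2.61), Ccdc3, a secreted protein (2.57), and Abca1, the cholesterol exporter (2.57). Phex in Wt1-null arrays (4.23 to 4.37) read within the range of unexpressed genes and Nptx1 (4.82 to 5.08) at its upper end, so the sizes and ranks of these 2 differences are uncertain. A second probe set gave 1.82 for Nptx1, 0.11 for Scara5, 0.25 for Trbv1, 0.08 for Phex and 3.41 for Frzb. Those of Gda gave 2.55 and 2.21, and those of Abca1 gave 1.50 and 1.43. Scara5 lost its call without Wt1-null replicate 3 and without Wt1-null replicate 4.

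The largest of these falls was that of Gjb2, the gap junction protein connexin 26. It had 5.90, 6.73 and 7.23 in double arrays, against 11.80, 11.65, 11.74 and 8.85 in Wt1-null arrays. Wt1-null replicate 5 was well below the other Wt1-null arrays, and the log2 difference was -4.35 (SE 0.64, adjusted p = 0.000817). Myh1, a fast skeletal muscle myosin heavy chain, had 3.82, 4.61 and 6.61 in double arrays, against 9.09, 8.05, 8.31 and 10.06 in Wt1-null arrays. In 5 of 7 double arrays Myh1 read within the range of unexpressed genes, so its log2 difference of -4.01 (SE 0.66, adjusted p = 0.00191) is measured against background and its size and rank are uncertain. Of its other probe sets, 1 gave -4.06 and 1 gave -0.01. Krt7, a simple epithelial keratin, had 5.56, 5.98 and 6.82 in double arrays, against 10.16, 9.13, 9.29 and 7.86 in Wt1-null arrays, a log2 difference of -3.11 (SE 0.48, adjusted p = 0.00124).

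Cnn1, calponin 1 of smooth muscle and stress fibres, had 8.09, 9.58 and 10.70 in double arrays, against 13.13, 12.95, 12.94 and 12.46 in Wt1-null arrays, a log2 difference of -3.32 (SE 0.44, adjusted p = 0.000328). Adam12, a membrane metalloprotease of muscle and myofibroblasts, had 6.56, 8.47 and 9.61 in double arrays, against 10.70, 11.25, 11.25 and 11.01 in Wt1-null arrays (log2 difference -2.58, SE 0.50, adjusted p = 0.00487). The other 10 of these 15 falls were C1qtnf3, a secreted protein of the C1q and TNF family (-3.52), Limch1, an actin and myosin regulator (-2.88), Rgs4, a brake on G protein signalling (-2.77), Mgll, monoacylglycerol lipase (-2.76), Adamts12, a matrix protease (-2.71), Myom1, a sarcomere protein (-2.46), Slc4a4, a bicarbonate transporter (-2.15), Tspan2, a tetraspanin (-2.14), Stbd1, a glycogen-binding protein (-2.11), and Tnmd, tenomodulin of tendon (-2.09). All 30 of these genes kept their direction in every alternative tried. C1qtnf3 in double replicates 1 and 4 read within the range of unexpressed genes, so the size of its difference is uncertain. Mgll, Slc4a4 and Tspan2 lost their call without Wt1-null replicate 3, 4 or 5, and Mgll and Tspan2 also without some double arrays. With Wt1-null replicates 3 and 4 averaged, 26 of the 30 were still called, and with Wt1-null replicate 2 kept, 1 was.

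**Figure D1:**
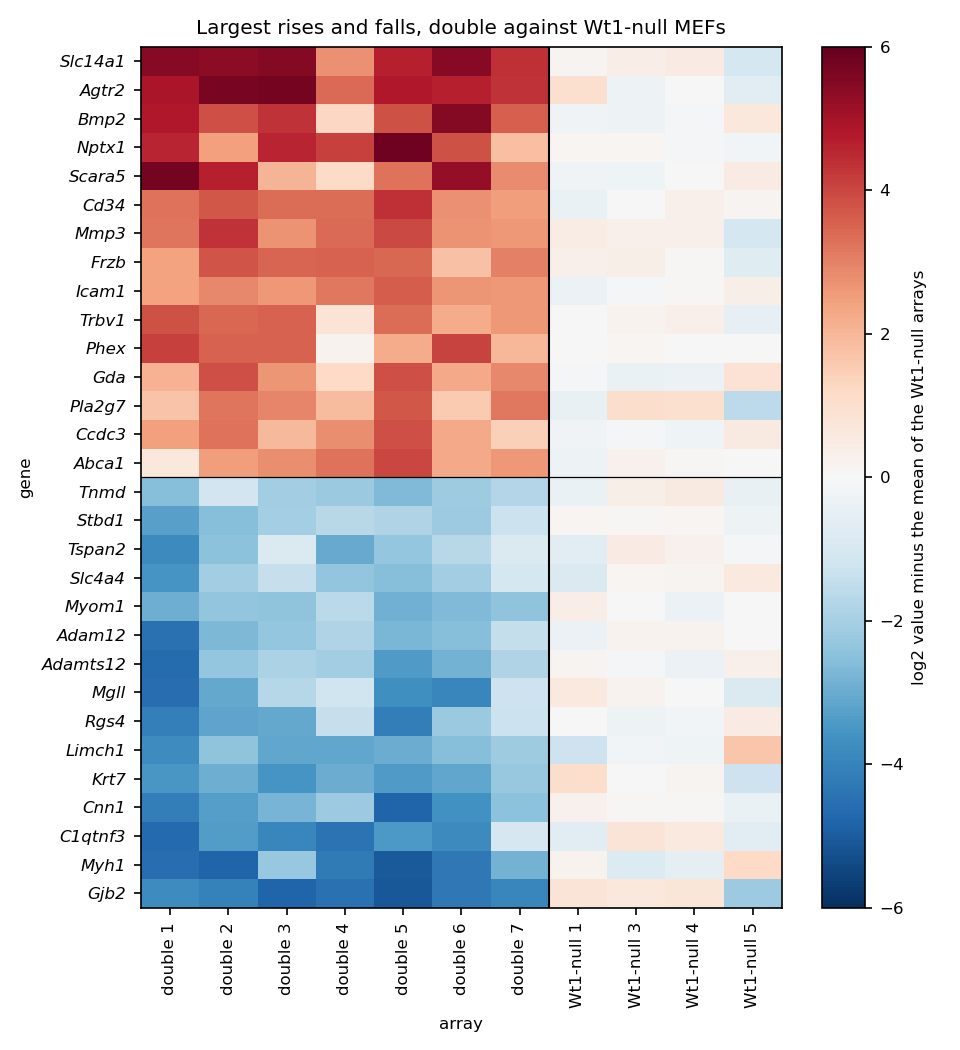
Each row is 1 of the 15 largest rises or 15 largest falls among called genes whose groups do not overlap, and each column is 1 array, the 7 double arrays left of the 4 Wt1-null arrays. Colour gives the log2 value minus the mean of the Wt1-null arrays, red for higher and blue for lower. Double replicate 4 is paler than the other double arrays for Slc14a1 (10.06) and Phex, and Wt1-null replicate 5 is bluer than the other Wt1-null arrays for Gjb2 (8.85).

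Genes of the contractile and actin cytoskeleton were lower in double MEFs. All 24 measured members had a difference below 0, as did 43.8% of all genes, and their median was -0.73, against 0.03 over all genes. In all, 14 of the 24 (58.3%) were called lower, against 1.86% of all genes. The mean of the 24 genes was 10.85, 11.15 and 11.79 (lowest, median and highest) in double arrays, against 12.19, 12.30, 12.27 and 11.99 in Wt1-null arrays, without overlap. Csrp1, a LIM protein of actin bundles, had 11.45, 11.88 and 12.30 in double arrays, against 13.01, 13.24, 13.23 and 12.99 in Wt1-null arrays (log2 difference -1.25, SE 0.20, adjusted p = 0.00129). Lmod1, a leiomodin that nucleates actin filaments in smooth muscle, fell by 1.65 on the log2 scale. Myh11, the smooth muscle myosin heavy chain, fell by 1.90. In these bulk samples fewer cells of a type and less RNA per cell cannot be told apart.

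Further members of that list, already counted above, are regulators and structural parts of the same apparatus. Mylk, the kinase that activates myosin through its light chain, fell by 1.92 and Myl9, that light chain, by 1.72. Actg2, the enteric smooth muscle actin, fell by 2.35. The classical myofibroblast marker Acta2 had 13.59, 14.35 and 14.76 in double arrays, against 14.96, 14.97, 14.93 and 14.90 in Wt1-null arrays. That fall of 0.66 log2 units was small but without overlap (SE 0.16, adjusted p = 0.0197), and the values lay near the top of the scale, which ended at 15.14. Tagln fell by 1.14, Synpo2 by 1.26, Tpm1 by 0.81, Actn1 by 0.57, Tpm2 by 0.53 and Cnn2 by 0.50. With Wt1-null replicates 3 and 4 averaged 9 of the 24 were called, with Xist as a covariate 10, and without the 3 arrays in doubt 13. In oncogene against control arrays 19 of the 24 were below 0, with a median of -0.225 and 2 called.

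Promoters of this group were searched for the CArG box, the binding element of serum response factor, in the 250 bases before each gene's start, on both strands, using RefSeq sequences of mouse assembly GRCm38.p6. It was present in 4 of 21 contractile genes with a promoter sequence (19%), and in 1.43% of 14453 tested genes. The matches of Myl9 (chr2:156775273-156775352, plus strand) and Cnn2 (chr10:79988514-79988593, plus strand) are shown because both genes were called lower; capitals mark the CArG box, which starts 161 bases before the gene's start in Myl9 and 56 in Cnn2.
Myl9: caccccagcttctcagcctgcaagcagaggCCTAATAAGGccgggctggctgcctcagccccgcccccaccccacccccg
Cnn2: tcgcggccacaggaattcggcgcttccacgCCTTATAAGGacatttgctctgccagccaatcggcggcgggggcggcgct
A match of letters does not show binding.

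Genes induced by YAP and TEAD, which respond to cell tension, were lower for 12 of 14 members, with a median difference of -0.87. In oncogene against control arrays 9 of the 14 were above 0, with a median of 0.17 and 0 called. In double against Wt1-null arrays 3 of the 14 were called lower (21.4%, against 1.86% of all genes). Gadd45b, a stress sensor, fell by 1.41, F3, tissue factor that starts blood clotting, by 2.04, and Tgfb2, a TGF-beta ligand, by 1.79. Ccn2, the classical target of the pathway, had 11.53, 13.44 and 14.19 in double arrays, against 14.32, 14.58, 14.54 and 14.73 in Wt1-null arrays, but did not pass the test (log2 difference -1.36, SE 0.56, adjusted p = 0.175). Of 14 TGF-beta response genes, 10 were below 0 and the median was -0.57. Among them Tgfb3, a TGF-beta ligand, fell by 1.40, whereas Tgfbi, a matrix protein named for its induction by TGF-beta, rose by 2.41. The calls of F3 and Tgfb2 were lost without any of several arrays of either group, and that of Tgfb3 without Wt1-null replicate 5. Of 20 skeletal and cardiac muscle genes 2 were called lower (10%, against 1.86% of all genes) and none was called higher. These were Myh1 and Acta1, the skeletal actin (-1.98). Acta1 lost its call without Wt1-null replicate 1, 3 or 4 or double replicate 1, 2 or 3. The median of the muscle list was -0.06.

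Output genes of ERK signalling were mixed. Of 24 members, 15 were above 0, as were 56.2% of all genes, and the median was 0.22. Of the 24, 5 were called higher and 1 lower (25% called, against 5.09% of all genes). Spry2, a Sprouty inhibitor of the cascade, had 10.17, 10.28 and 10.49 in double arrays, against 9.31, 9.57, 9.51 and 9.08 in Wt1-null arrays. Every double array was above every Wt1-null array and the log2 difference was 0.93 (SE 0.12, adjusted p = 0.00023). Dusp6, the phosphatase that switches ERK off, had 10.16, 10.63 and 11.70 in double arrays, against 9.55, 9.56, 9.47 and 7.83 in Wt1-null arrays (log2 difference 1.72, SE 0.37, adjusted p = 0.0103). Etv5, an ETS transcription factor induced by ERK, rose by 1.77 and Spry4 by 1.32. Ccnd1, cyclin D1, rose by 0.51. Plaur, the urokinase receptor, fell by 1.50.

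Other members of the ERK list did not pass the test. Dusp4, a nuclear MAP kinase phosphatase, had a wide range of 6.36, 8.44 and 10.26 in double arrays, against 7.26, 7.58, 7.70 and 4.82 in Wt1-null arrays (log2 difference 1.50, adjusted p = 0.185). Fosl1, an AP-1 subunit, differed by 0.21 (adjusted p = 0.753), and Ereg, an EGF receptor ligand, by -0.94 (adjusted p = 0.345). The mean of the list was 9.79, 10.37 and 10.68 in double arrays, against 9.92, 10.32, 10.26 and 9.78 in Wt1-null arrays, so the groups overlapped. In oncogene arrays against control arrays all 24 members were above 0 and the median was 1.05. That second comparison also changes the virus, and the difference between the medians was not tested.

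Among regulators of small GTPases, Rasal2, a GTPase-activating protein, fell by 1.15 and Rasgrp3, a nucleotide exchange factor, by 1.13. These were the only called members among 15 (13.3%, against 5.09% of all genes), and both calls held whichever 1 array was left out. Of 11 regulators of G protein signalling 2 were called (18.2%). Rgs2 rose by 2.15 and Rgs4 fell. Of 22 growth factor receptors, 5 were called higher (22.7%) and none lower. Pdgfra, the PDGF receptor of mesenchymal cells, had 11.84, 12.21 and 12.63 in double arrays, against 9.47 to 11.27 in the 4 Wt1-null arrays, without overlap (log2 difference 2.08, SE 0.37, adjusted p = 0.00312). Igf2r, which carries IGF2 and lysosomal enzymes to lysosomes, rose by 1.37, Fgfr1 by 0.91 and Ntrk2, a neurotrophin receptor, by 0.74. Of 23 ligands 4 were called (17.4%). Vegfd (1.32), Angptl4 (1.08) and Angpt2 (1.04) rose, and Fgf2, basic fibroblast growth factor, fell by 1.65. None of these 4 ligand calls held without Wt1-null replicate 3 or without Wt1-null replicate 4.

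IGF-binding proteins, which hold IGF ligands outside the cell, moved in both directions, with 4 of 9 called (44.4%, against 5.09% of all genes). Igfbp3 had 10.40, 12.16 and 12.85 in double arrays, against 9.66, 9.42, 9.36 and 9.09 in Wt1-null arrays (log2 difference 2.42, SE 0.46, adjusted p = 0.0046). Igfbp4 rose by 0.83 and Igfbp6 by 0.57. Igfbp2 had 5.47, 7.69 and 9.80 in double arrays, against 9.70, 10.31, 10.22 and 13.64 in Wt1-null arrays. The groups overlapped by a narrow margin and Wt1-null replicate 5 was the highest array (log2 difference -3.52, SE 0.90, adjusted p = 0.0272), and the call was lost without it. The calls of Igfbp2, Igfbp4 and Igfbp6 were also lost without Wt1-null replicate 3 or 4. Of 23 BMP and Wnt ligands and antagonists 4 were called (17.4%). Bmp2, Frzb and Dkk2, a secreted Wnt modulator (2.59), rose, and Fstl3, an activin antagonist, fell by 1.07. Of 25 axon guidance and neural adhesion genes 5 were called (20%), all higher. Beside Nptx1 these were Nrcam (2.14), Sema5a (2.11), Ntn1, netrin 1 (2.07), and Sema6d (1.61). The call of Nrcam was lost without Wt1-null replicate 1, and that of Sema5a without Wt1-null replicate 3 or 4.

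Lysosomal and autophagy genes were higher in double MEFs by small amounts. Of 20 members, 19 were above 0, as were 56.2% of all genes, and the median was 0.50. In all, 11 (55%) were called, all of them higher, against 3.23% of all genes called higher. The list mean was 11.95, 12.09 and 12.20 in double arrays, against 11.72, 11.45, 11.44 and 11.68 in Wt1-null arrays, without overlap. Ctsd, the protease cathepsin D, had 13.37, 13.68 and 14.05 in double arrays, against 12.95, 12.77, 12.68 and 12.85 in Wt1-null arrays (log2 difference 0.84, SE 0.12, adjusted p = 0.00065). Glb1, the beta-galactosidase that is stained in senescent cells, had 10.09, 10.44 and 10.92 in double arrays, against 9.89, 9.64, 9.64 and 9.39 in Wt1-null arrays. Its groups did not overlap (log2 difference 0.81, SE 0.20, adjusted p = 0.0206).

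Further called members of the lysosome were Ctsa (0.77), Gaa (0.73), Ctsb (0.66), Mcoln1, a calcium channel of the lysosomal membrane (0.62), Psap (0.59), Gusb (0.53), Npc2, which moves cholesterol out of lysosomes (0.53), Ctsz (0.37) and Lamp1 (0.35). These calls leaned on Wt1-null replicates 3 and 4, the lowest arrays for the list. With that pair averaged 2 of 20 were called, without Wt1-null replicate 4 also 2, with Xist as a covariate 2, and without the 3 arrays in doubt 9.

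Many lysosomal promoters carry a palindrome bound by TFEB and its relatives. The letters TCACGTGA were found in the 250 bases before the start, on either strand, in 3 of 17 lysosomal genes with a promoter sequence (17.6%), and in 1.32% of 14453 tested genes. CACGTG, which lies inside that palindrome, was found in 7 of 17 (41.2%), and in 8.73% of tested genes. The 3 genes with the palindrome were all called higher and are shown with it in capitals: Ctsd (chr7:142387879-142387956, minus strand), Mcoln1 (chr8:3500443-3500518, plus strand) and Ctsa (chr2:164833730-164833772, plus strand). It starts 99, 46 and 13 bases before the gene's start in these.
Ctsd: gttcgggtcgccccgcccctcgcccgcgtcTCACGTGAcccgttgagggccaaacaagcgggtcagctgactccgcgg
Mcoln1: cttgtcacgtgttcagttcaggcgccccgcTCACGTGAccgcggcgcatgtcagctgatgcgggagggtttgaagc
Ctsa: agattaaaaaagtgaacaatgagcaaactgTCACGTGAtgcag
These matches describe the sequences only.

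Cholesterol synthesis genes were lower. Of 20 members, 19 were below 0, as were 43.8% of all genes, and the median was -0.76. Of the 20, 3 were called lower (15%, against 1.86% of all genes). The list mean was 9.15, 9.94 and 10.39 in double arrays, against 10.59, 10.58, 10.55 and 10.52 in Wt1-null arrays, without overlap and with a much wider spread among double arrays. Sqle, squalene epoxidase, had 9.91, 11.04 and 11.28 in double arrays, against 11.61, 11.68, 11.70 and 11.90 in Wt1-null arrays (log2 difference -0.88, SE 0.18, adjusted p = 0.00734). Cyp51 fell by 1.20 and Msmo1 by 1.06, both enzymes of the steps from lanosterol. The calls of Cyp51 and Msmo1 were lost without Wt1-null replicate 3 or 4. Hmgcs1, an early enzyme of the pathway, did not pass the test (log2 difference -1.01, adjusted p = 0.0895). With Wt1-null replicates 3 and 4 averaged 1 member was called, and with Xist as a covariate 0 were called by limma. In oncogene against control arrays all 20 members were below 0, with a median of -0.64. The letters TCACNCCAC, a sterol response element, were found on either strand in the same window in 1 of 16 cholesterol promoters (6.25%), that of Hmgcs1, and in 1.27% of tested genes. Of 14 fatty acid synthesis genes none was called by limma, and none had an unadjusted p below 0.05.

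Mitosis genes were lower in double MEFs in mean, with overlapping arrays. All 29 members were below 0, as were 43.8% of all genes, and the median was -1.15. Of the 29, 6 were called lower (20.7%, against 1.86% of all genes), while 27 had an unadjusted p below 0.05. The list mean was 8.60, 9.28 and 10.48 in double arrays, against 9.89, 10.83, 10.86 and 11.13 in Wt1-null arrays. Wt1-null replicate 1 lay among the double arrays. Tpx2, a spindle assembly factor, had 9.06, 9.86 and 10.72 in double arrays, against 10.64, 11.48, 11.53 and 11.49 in Wt1-null arrays (log2 difference -1.29, SE 0.26, adjusted p = 0.00749). Cenpa, the centromeric histone, fell by 1.35, Prc1, which bundles the central spindle, by 1.31, Birc5, survivin, by 1.20, Aurka, aurora kinase A, by 1.17, and Kif20a, a kinesin of cytokinesis, by 1.15.

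With Wt1-null replicates 3 and 4 averaged 1 member was called, and with Xist as a covariate limma called 0, as it did with Wt1-null replicate 2 kept. Leaving out 1 array at a time gave 1 to 14 calls, although the median stayed between -1.40 and -0.97. In oncogene against control arrays the median of the same genes was 0.01. The letters TTTGAA, a core of the cell cycle element called CHR, were found on either strand in 8 of 24 mitosis promoters (33.3%), and in 14.1% of tested genes. Prc1 (chr7:80294416-80294475, plus strand) is shown as a called member with the match in capitals, which starts 30 bases before the gene's start.
Prc1: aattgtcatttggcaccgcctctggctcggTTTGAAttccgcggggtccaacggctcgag

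DNA replication genes were below 0 for 30 of 31 members, with a median of -0.57, and 2 were called (6.45%), a share near the 5.09% of all genes. Rrm1, a subunit of ribonucleotide reductase, fell by 1.07, and Orc1, of the origin recognition complex, by 0.85. Neither was called with Wt1-null replicates 3 and 4 averaged. Of 8 CDK inhibitors and related genes only Cdkn3, a phosphatase that peaks in mitosis, was called (12.5%). It fell by 1.72, a call lost without Wt1-null replicate 4. Cdkn2a, which encodes p16 and p19Arf, had 7.76, 9.36 and 9.90 in double arrays, against 8.51, 7.57, 7.63 and 6.74 in Wt1-null arrays. The groups overlapped and the log2 difference of 1.44 (SE 0.44) did not pass the test (adjusted p = 0.0659). Of 19 p53 target genes, 16 were above 0 with a median of 0.54. None was called by limma, and 9 had an unadjusted p below 0.05. Cdkn1a, the p53-induced inhibitor p21, differed by 0.89 (SE 0.39, adjusted p = 0.217).

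**Figure D2:**
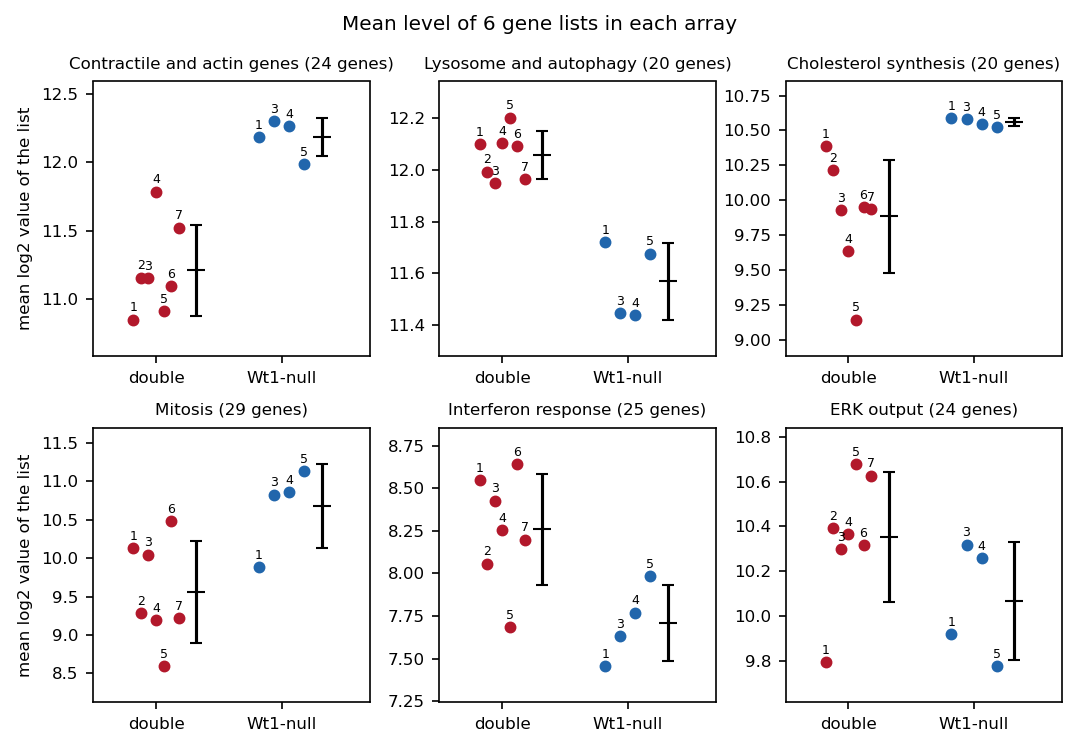
Each panel plots the mean log2 value of 1 gene list in each array, double left and Wt1-null right, with replicate numbers above the points and bars for the group mean and SD (n = 7 and n = 4). The groups do not overlap for the contractile, lysosome and cholesterol lists, and they overlap for the mitosis, interferon and ERK lists. Vertical axes start above 0 and differ between panels.

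Interferon response genes were above 0 for 24 of 25 members, with a median of 0.44. Of the 25, 3 were called (12%, against 5.09% of all genes), all higher. Ifit3, an antiviral effector, had 8.63, 8.81 and 9.83 in double arrays, against 7.59, 7.40, 7.31 and 7.78 in Wt1-null arrays (log2 difference 1.60, SE 0.32, adjusted p = 0.00662). Tap1, the peptide transporter of antigen presentation, rose by 1.51. Rsad2 rose by 0.39, a call that was lost without any 1 of the 4 Wt1-null arrays. The list mean was 7.69, 8.25 and 8.64 in double arrays, against 7.46, 7.63, 7.77 and 7.98 in Wt1-null arrays. Both groups had received virus. Of 24 chemokines and cytokines 2 were called (8.33%), both higher: Il33, an alarmin of stromal cells (2.41), and Ccl8 (1.42). Il33 in Wt1-null arrays read within the range of unexpressed genes, so the size of its difference is uncertain. Both calls were lost without Wt1-null replicate 4, and that of Ccl8 without any other Wt1-null array too. Ccl2, the monocyte chemokine, differed by -0.07 (adjusted p = 0.961).

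Of 13 complement genes 3 were called (23.1%, against 5.09% of all genes), all higher, and the median of the list was 0.11. The arrays of these 3 did not overlap, as for 5.64% of all genes. Clu, clusterin, had 10.15, 10.97 and 11.09 in double arrays, against 8.68 to 9.10 in the 4 Wt1-null arrays (log2 difference 1.90, SE 0.25, adjusted p = 0.00037). Serping1, the inhibitor of complement C1, rose by 1.98, and Cd55, which speeds decay of complement enzymes on the cell surface, by 2.40. With Wt1-null replicates 3 and 4 averaged 3 were also called, as they were with Xist as a covariate. Prostaglandin genes gave 2 calls among 12 (16.7%), Ptges, prostaglandin E synthase (1.33), and Ptgir, the prostacyclin receptor (1.21). That of Ptges was lost without Wt1-null replicate 3.

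Matrix proteases changed in both directions, with 3 called higher and 2 lower among 22 (22.7%, against 5.09% of all genes). Beside Mmp3, Mmp2, gelatinase A, had 12.36, 12.70 and 13.33 in double arrays, against 11.25, 11.43, 11.40 and 11.95 in Wt1-null arrays (log2 difference 1.28, SE 0.27, adjusted p = 0.0097). Mmp19 rose by 1.22. Adamts5, an aggrecan-cleaving protease, fell by 1.53, as did Adam12 by 2.58. Of 21 collagen genes none was called by limma, with 8 at an unadjusted p below 0.05 and a median of -0.22. In elastic fibres and small proteoglycans Efemp1, fibulin 3, rose by 1.82 and Ltbp4, which binds latent TGF-beta, by 1.09, while Fbln5, fibulin 5, fell by 0.97. Ccn4, a matricellular Wnt target, fell by 1.50. The calls of Ltbp4, without Wt1-null replicate 3 or 4, and of Fbln5, without replicate 1 or 5, were lost. Of 13 integrins none was called by limma and 3 had an unadjusted p below 0.05.

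Stress and metabolic genes were called in both directions. Among 26 genes of the ATF4 and amino acid response, 4 were called lower and 1 higher (19.2%, against 5.09% of all genes). Mthfd2, a mitochondrial folate enzyme, fell by 1.40, Aldh1l2 of the same pathway by 1.47, Slc7a5, a leucine transporter, by 1.02, and Psat1, of serine synthesis, by 0.75, while Stc2 rose by 0.48. The median of that list was -0.29, and it ran from -0.53 to -0.02 without 1 array. The list mean was 8.74 to 9.58 in double arrays, and the groups overlapped. Only Wt1-null replicate 1 lay above every double array. In oncogene against control arrays, where the virus also changes, the median was -1.0. Of 21 unfolded protein response genes only Manf was called (4.76%), and it fell by 0.68. In the glutathione and NRF2 list 4 of 19 were called (21.1%). Gstm1 (1.90), Mgst1 (1.79) and Gsta4 (1.56), which conjugate glutathione, rose, and Gsr, which reduces it, fell by 1.0. Gstm1 and Gsr lost their calls without Wt1-null replicate 3 or 4, Manf without replicate 5 and Stc2 without replicate 1, 4 or 5.

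Among 20 glycolysis and hypoxia genes 2 were called (10%). Ndrg1 rose by 1.20 and Higd1a fell by 0.66. The call of Ndrg1 was lost without any 1 of the 4 Wt1-null arrays, and that of Higd1a held whichever 1 array was left out. Neither the 22 respiratory chain genes nor the 16 ribosomal protein genes nor the 18 HOX genes had a call by limma, with 1, 0 and 1 members at an unadjusted p below 0.05. Of 19 polycomb and chromatin genes only Ezh1, the histone methyltransferase of resting cells, was called (5.26%, near the 5.09% of all genes). It had 8.50 to 9.42 in double arrays, against 7.94, 8.03, 8.06 and 7.90 in Wt1-null arrays, without overlap (log2 difference 0.99, SE 0.21, adjusted p = 0.00796). Of 19 reported Wt1 targets, 3 were called (15.8%). Aldh1a2, which makes retinoic acid, rose by 1.55, and Sulf1, a heparan sulphatase (-1.04), and Scel, sciellin (-0.32), fell. Each of these 3 calls was lost without Wt1-null replicate 3, and both groups lacked Wt1 per the labels. Aldh1a2 in Wt1-null arrays (4.51 to 5.11) and Scel in double arrays (4.80 to 5.10) read within or just above the range of unexpressed genes. Scel in Wt1-null arrays read 5.14 to 5.32, and its other probe set gave 0.04. The sizes of these 2 differences are uncertain.

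Each list of markers of other cell types had at most 2 calls, shares of 0% to 14.3%, against 5.09% of all genes. Of 14 epithelial markers Dsp, desmoplakin, rose by 2.45 and Krt7 fell. Dsp in Wt1-null replicates 1 and 5 (4.60 and 4.21) read within the range of unexpressed genes, so the size of its difference is uncertain. The other probe sets of Dsp gave 2.37 and -0.01. Of 12 endothelial markers Tek rose by 1.17, of 13 blood cell markers Cd68 by 0.78, and of 12 adipocyte markers Cebpa by 1.14. Of 14 cartilage and bone markers Acan fell by 1.05 and Matn3 by 0.48. Apart from Krt7, each of these calls was lost without at least 1 Wt1-null array. Neither the 13 neural nor the 8 mesothelial markers had a call by limma, with 2 and 0 at an unadjusted p below 0.05. The mean level of the 12 endothelial markers was 5.93 to 6.31 in double and 5.94 to 6.02 in Wt1-null arrays, and that of the 13 blood cell markers was 5.85 to 6.27 in double and 5.78 to 5.88 in Wt1-null arrays. That of the 14 epithelial markers was 6.04 to 6.85 in double and 6.06 to 6.48 in Wt1-null arrays. The part of other cells in the results was not tested.

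**Figure D3:**
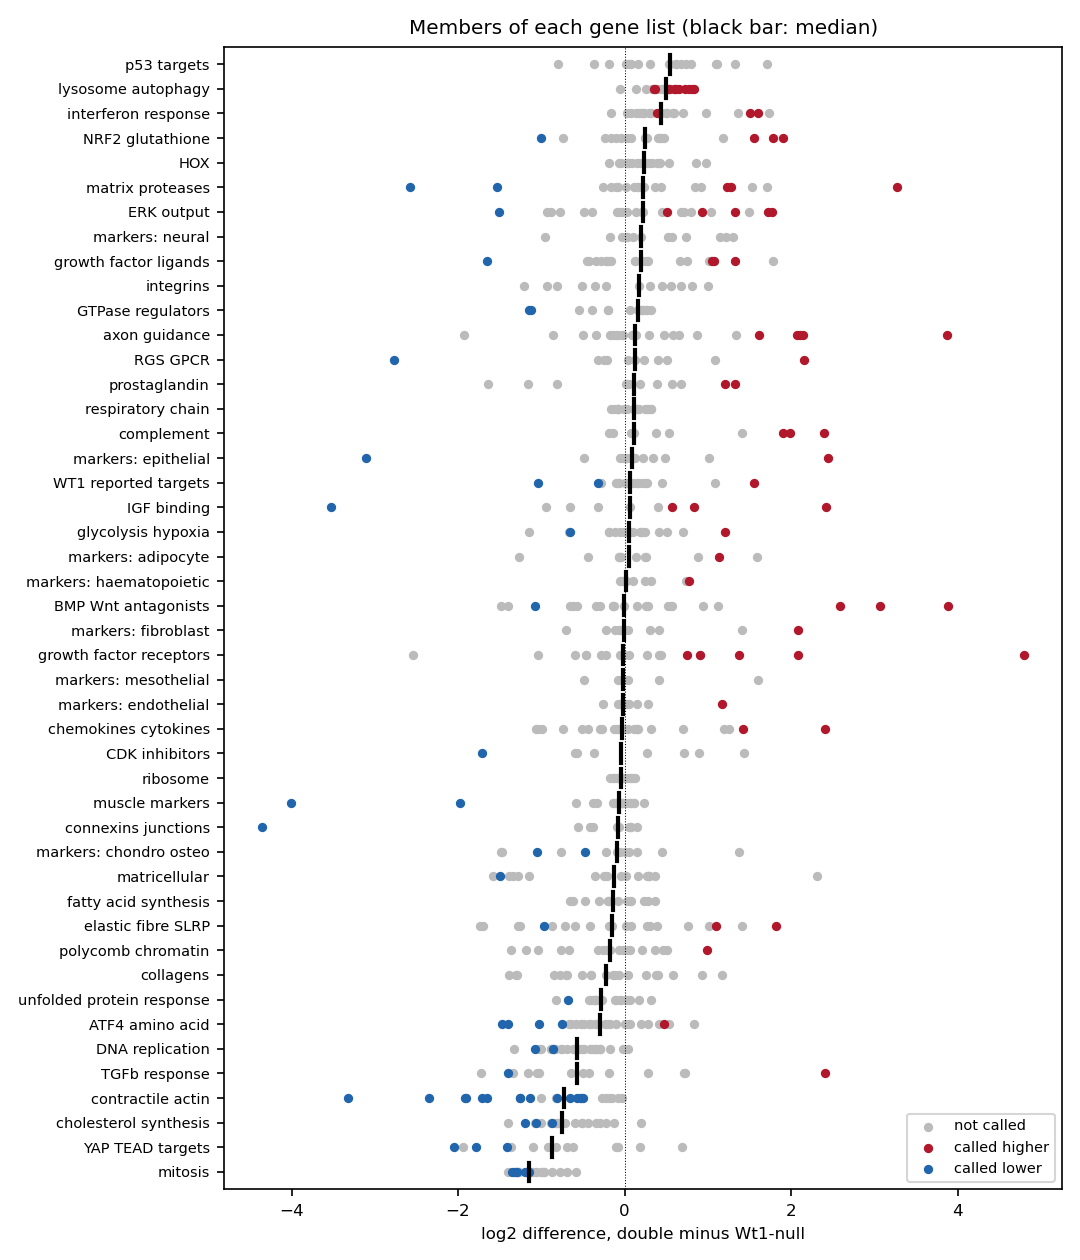
Each point is 1 gene of a list, placed by its log2 difference (double minus Wt1-null), with lists ordered by their median (black bar). The mitosis, YAP and TEAD, cholesterol and contractile lists lie furthest left, and p53, lysosome and interferon lists furthest right. Red and blue mark genes called higher and lower. The sex-linked list is not drawn.

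The oncogene effect was then set beside that in MEFs with Wt1, as oncogene against control arrays. The 2 comparisons share no arrays, but the second also changes the virus. It called 485 genes (2.67%), 307 higher (1.69%) and 178 lower (0.978%). Of these, 200 were called in the same direction in both, 139 higher and 61 lower, and 0 in opposite directions. They made up 21.6% of the genes called in double against Wt1-null arrays and 41.2% of those called in oncogene against control arrays. Of the 588 genes higher in double arrays, 544 were also above 0 in oncogene against control arrays, where 43.8% of all genes were. Of the 338 lower, 289 were also below 0. Double replicates 3, 4 and 6 correlated best with the oncogene arrays of the same number, and Wt1-null replicate 1 with control replicate 2. The labels do not say whether arrays of different groups share a culture or batch. Any part of that in these shared counts was not tested.

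Among the 15 rises named first, 14 of 15 were also called higher in oncogene against control arrays. Slc14a1 differed by 4.80 there, Agtr2 by 4.17, Bmp2 by 4.03, Cd34 by 3.37, Mmp3 by 3.09 and Icam1 by 2.35. Scara5 was the exception at 1.75. Among the 15 falls, 6 of 15 were also called lower. Gjb2 differed by -3.52 there, Krt7 by -2.64, Cnn1 by -2.18 and Myh1 by -0.82. Adam12 was at 0.33 and Slc4a4 at 0.69, with the opposite sign. Whether these differ between cells without and with Wt1 was tested by the interaction, which called none of these 30 genes (lowest adjusted p 0.418).

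The interaction is the difference in double against Wt1-null arrays minus that in oncogene against control arrays. At an adjusted p below 0.05 limma called 2 genes (0.011%), and 1897 had an unadjusted p below 0.05. Trib3, a pseudokinase of the ATF4 response, had 6.96, 7.28 and 8.06 in double arrays, against 9.56, 7.45, 7.52 and 6.82 in Wt1-null arrays, a log2 difference of -0.52 that did not pass the test (adjusted p = 0.474). In oncogene against control arrays its difference was -3.74, and the interaction was 3.22 (adjusted p = 0.0481). The control arrays, given the GFP virus, read 10.47 to 11.19 for Trib3, above every array given Cre. Car6, a secreted carbonic anhydrase, had an interaction of 2.06 (adjusted p = 0.0481), from -0.31 in double against Wt1-null and -2.37 in oncogene against control arrays. Car6 read 6.93 to 8.26 in control arrays, also above every array given Cre. It read 5.10 to 5.45 in double and 5.19 to 5.41 in oncogene arrays, just above the range of unexpressed genes. The size of its interaction is therefore uncertain. Neither gene was called in double against Wt1-null arrays, and neither call held under all alternatives.

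**Figure D4:**
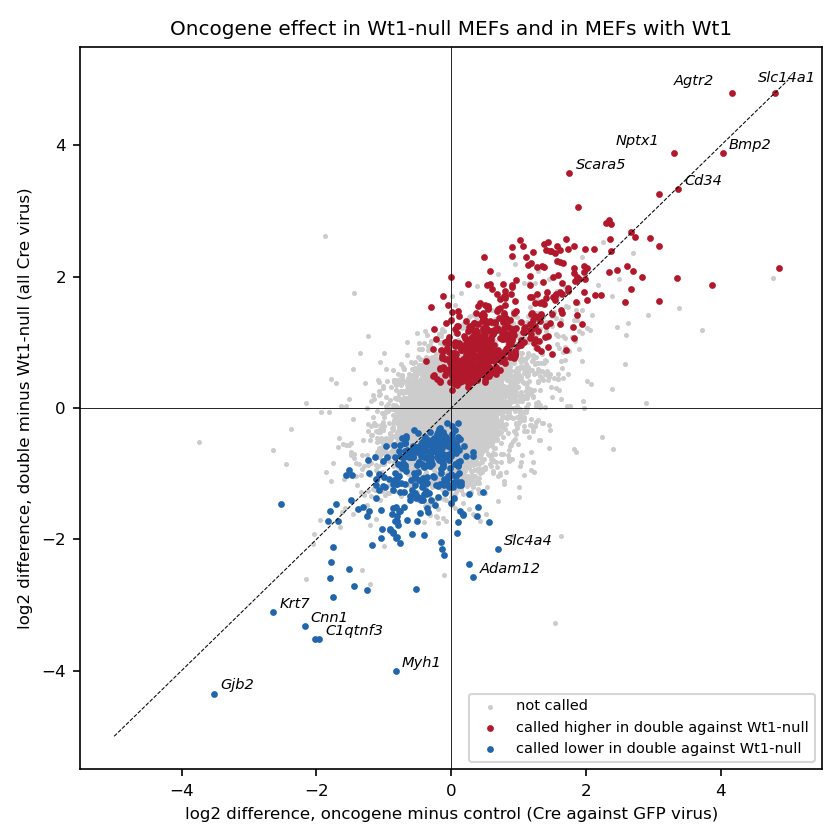
Each point is 1 gene, with its log2 difference in oncogene against control arrays on the horizontal axis and in double against Wt1-null arrays on the vertical axis; the dashed line marks equal differences. Coloured genes were called in double against Wt1-null arrays, 588 higher (red) and 338 lower (blue). Slc14a1 lies at 4.80 on both axes, whereas Myh1 lies at -0.82 and -4.01.

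**Figure D5:**
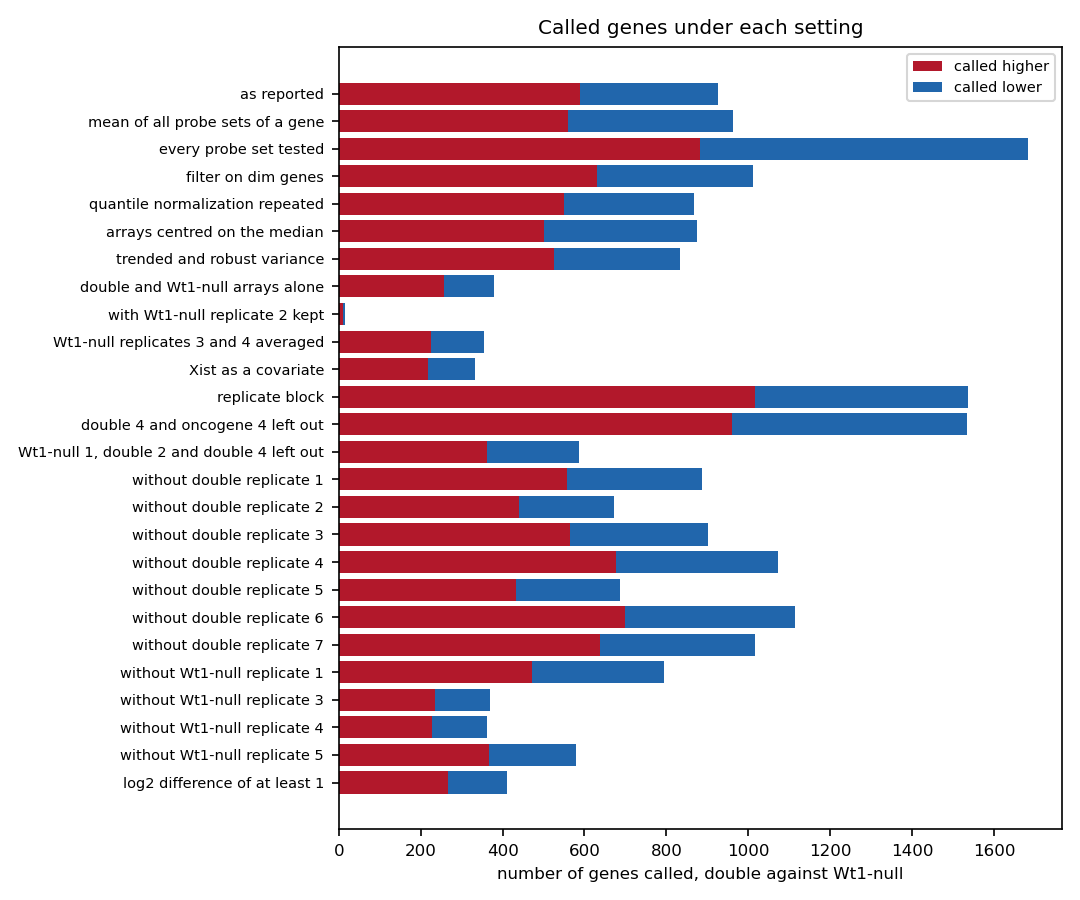
Bars give the number of genes called in double against Wt1-null arrays under each setting, higher in red and lower in blue, with the setting of the report at the top (926). The count was 15 with Wt1-null replicate 2 kept and 1682 with every probe set tested. The fit with array weights, with 4204 calls, is not drawn.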

How the data were processed

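The samples were 22 arrays of MEFs on an Affymetrix whole-genome mouse expression array, grouped by the labels. The deposited values are log2 intensities. Per the submitters' processing notes, the authors made them by RMA in Affymetrix Expression Console, whose version is not given in the sources used here. RMA subtracts background, gives all arrays a common distribution and compresses differences between low values. Values ran from 3.29 to 15.14 and array medians from 6.23 to 6.33. Precision is limited by the number of arrays. The oncogene is not reported here by name.

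Of 45101 probe sets, 64 were controls. The platform annotation, which can be old, named 1 gene for 34958, several for 932 and listed none for 9211. Gene IDs placed 34754 of the first in RefSeq's table for GRCm38.p6, with 0 changed symbols. Promoter sequences are those of RefSeq for the same assembly, and only the 250 bases before the start were searched.

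The 4 groups were fitted together on 21 arrays, without Wt1-null replicate 2, by lmFit and eBayes of limma 3.58.1 (R 4.3.3). Benjamini-Hochberg adjustment ran over 18194 genes, and calls are those with adjusted p below 0.05. The fit was tested on simulated data. The comparison, its 47 gene lists (806 genes measured of 868) and the rule for naming genes were chosen with earlier results of these data known, so no list was given a test. The rule took 15 rises and 15 falls by size, from called genes with no overlap between the groups and a higher mean of at least 6, clone names excepted. It added, per list, the called members of smallest p, up to 4, up to 5 interaction genes per sign, Wt1 and Xist. Other members were named after their values were seen, among them all further called members and the members with printed sequences.

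Alternatives were another choice of probe sets, a filter on dim genes, repeated normalization, median centring, other variance models, a fit of both groups alone, Xist as a covariate, a replicate block and leaving out or averaging arrays. Leaving out Wt1-null replicate 1 with double replicates 2 and 4 was chosen after seeing the data; these 3 are the arrays in doubt. The labels give no batch. The double and Wt1-null arrays carry separate runs of accessions, so any effect of that and the group cannot be told apart.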

Additional observations from a re-analysis of the deposited data

Results flagged for a closer look

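Several arrays stood far from the rest of their group, by the gap to the nearest array relative to the group's range. Of 80 groups looked at, 9 did so, and chance gives about 1 in 20 for independent arrays. The groups share the same arrays, and Wt1-null replicates 3 and 4 were nearly alike, so the 9 cannot be set against that rate. Slc14a1 read 10.06 in double replicate 4, the next lowest double array being 11.70. C1qtnf3 read 8.30 in double replicate 7, the next highest being 5.96. Adam12 read 6.56 in double replicate 1, the next lowest being 8.31, and the mean of the ERK output list was 9.79 in the same array, the next lowest being 10.30. Wt1-null replicate 5 was low for Gjb2 at 8.85, the next being 11.65, for Mmp3 at 7.89, the next being 9.22, and for Stbd1 at 8.41, the next being 8.82. Phex read 4.37 in Wt1-null replicate 3, the next highest being 4.25, both at the level of unexpressed genes. Xist read 9.86 in Wt1-null replicate 1, the next highest being 6.46.

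For 2 genes limma called the interaction, whose oncogene against control side includes the change of virus. It was 3.22 for Trib3 and 2.06 for Car6, both with adjusted p = 0.0481. The control arrays, which alone received the GFP virus, were the highest for both genes. They read 10.47 to 11.19 for Trib3 and 6.93 to 8.26 for Car6, above every array given Cre. The part of the virus in these interactions was not tested. In Wt1-null replicate 1 Trib3 read 9.56 and Car6 6.57, the highest of the 4 Wt1-null arrays, whose other values were 6.82 to 7.52 for Trib3 and 5.14 to 5.26 for Car6. These other Car6 values lay just above the range of unexpressed genes, so the size of its interaction is uncertain.

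The left-out Wt1-null replicate 2 was nearer to the double mean than to the Wt1-null mean for 30 of the 30 largest rises and falls. This count carries no separate weight. The 30 were chosen with double replicate 2, which that array nearly equals, outside the range of the Wt1-null arrays. Which label of that array and double replicate 2 is right was not tested.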

How the results depend on the processing

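For double against Wt1-null arrays, the 926 calls became 1682 with every probe set tested, 4204 with array weights, 380 with both groups fitted alone, 15 with Wt1-null replicate 2 kept, 354 with Wt1-null replicates 3 and 4 averaged, 332 with Xist as a covariate, 1533 without double replicate 4 and oncogene replicate 4, 586 without the 3 arrays in doubt and 410 at a log2 difference of at least 1. Leaving out 1 array at a time gave 363 to 1114. The 200 genes called in both comparisons became 328, 1041, 9, 130 and 109 with every probe set, array weights, Wt1-null replicate 2 kept, replicates 3 and 4 averaged and the Xist covariate, 109 at a log2 difference of at least 1, and 130 to 273 without 1 array. The 2 interaction calls became 0 with every probe set, repeated quantile normalization, median centring, the averaged pair, the Xist covariate or without double replicate 4 and oncogene replicate 4, 3340 with array weights, 10 without the arrays in doubt and 0 to 4 without 1 array. The cause was not tested. Median centring changed the split to 501 higher and 373 lower.

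Whether the numbers shared by double and Wt1-null arrays pair them was not settled. The correlations of deviations were 0.187, 0.287, -0.086 and -0.342 for replicates 1, 3, 4 and 5. Of 4 double arrays, 2 correlated best with their own number. Wt1-null replicates 3 and 4 were so alike that a match with either can hardly be told from a match with the other. With the replicate block 1537 genes were called, and 0 for the interaction.

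The Wt1 difference turned to 0.018 with the Xist covariate, 0.021 without the arrays in doubt, and ranged from -0.099 to 0.026 without 1 array, being 0.002 without double replicate 2 and 0.026 without Wt1-null replicate 1. All 113 called genes named by rule kept their sign in every setting that tested them; 1 fell below the filter on dim genes. Of the 113, 72 were still called with the pair averaged, 65 with the Xist covariate and 3 with Wt1-null replicate 2 kept. Of 140 other probe sets of the named genes, 129 had the same direction.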
